A study of Mus musculus with 6 samples.

Results

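Bone morphogenetic proteins (BMPs) and their secreted antagonists were described in mouse dental pulp with and without matrix metalloproteinase 13. The set holds 10 genes chosen by symbol. It comprises 6 ligand genes, Bmp2, Bmp3, Bmp4, Bmp5, Bmp6 and Bmp7, and 4 antagonist genes, Nog, Grem1, Chrd and Fst, out of 53342 genes in the table. RNA sequencing compared 3 WT with 3 Mmp13-/- samples, all from male C57BL/6 mice aged 3 months. The Mmp13-/- mice were homozygous for a deficiency that was not restricted to a cell type, so every tissue lacked the collagenase. Sample labels name molars as the source of the pulp, whereas the study's methods name incisors, and the difference could not be settled here.

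BMPs are secreted signalling proteins of the TGF-β superfamily that are cut from larger precursors, form dimers and bind pairs of serine/threonine kinase receptors. Activated receptors phosphorylate Smad1, Smad5 and Smad9, which enter the nucleus with Smad4 and switch on targets such as the Id genes. Noggin, Gremlin 1 and Chordin bind BMP dimers outside the cell and keep them from their receptors, while Follistatin mainly traps activins and also binds several BMPs. In teeth, this pathway is known for the exchange of signals between epithelium and mesenchyme and for the differentiation of odontoblasts, the cells that lay down dentin.

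Before the members are described, the libraries need a short account. Total counts ran from 28442936 to 29980236 in WT and from 21561420 to 26547121 in Mmp13-/- samples. Transcripts of the targeted gene, Mmp13, were at 1069, 1139 and 827 counts in WT samples 2, 4 and 5, and at 10.2, 32.9 and 40.4 counts in Mmp13-/- samples 1, 2 and 6. Genes were grouped as satellite-like if most of a transcript matched that of the gene with the highest count in any library. They took 0.0331% to 0.0445% of the counts in WT, but 5.87%, 10.3% and 46.1% in Mmp13-/- samples 1, 2 and 6. Whether they hold a satellite repeat was not tested. Counts per kilobase at odorant and vomeronasal receptor genes, which pulp is not known to use, were 0.0947 to 0.116 in WT and 1.50, 1.76 and 4.80 in Mmp13-/- samples. Every Mmp13-/- library was above every WT library in both measures, so neither can be separated from genotype in these samples. Mmp13-/- sample 6 was the furthest from WT. The numbers of members called are also given without it, with values for Bmp5, Bmp6 and Bmp7. Odontoblast markers were present in all samples, with a summed normalized count of 1478130 to 1659050 in WT and 447671 to 595950 in Mmp13-/- pulp. Of the 8 listed genes, 4 were lower and 3 higher, with a median log2 fold change of -0.48, and of 0.01 with the GC offsets described below. The list includes collagen genes, and a sum weighs abundant genes most, so it does not measure odontoblast content. All marker counts are to be read against 24.3% of all genes tested lower and 27.3% higher. Skeletal muscle markers summed to 1472410 to 1707100 in WT and 270015 to 633329 in Mmp13-/- samples, with 8 of 10 lower. Neutrophil markers moved the other way, from 3566 to 7456 in WT and from 18649 to 46170 in Mmp13-/- samples, with 7 of 7 higher. Erythroid markers were higher for 5 of 6 genes and B lineage markers for 5 of 5. No listed marker was at 0 in all samples. What part these differences in tissue content have in the members' values was not tested, and in bulk tissue fewer cells of a type and less RNA per cell cannot be told apart.

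Promoter sequences are shown for Bmp5 and Chrd, which were chosen by their calls. Bmp5 was the only member called higher in Mmp13-/- pulp, and Chrd had the smallest adjusted p among those called lower. RefSeq (GRCm38.p6) gave a window of 300 bases, from 250 before to 50 after the start of transcription, for 5 of the 10 members. The Bmp5 window lies at chr9:75775115-75775414 and the Chrd window at chr16:20732877-20733176, both on the plus strand. Both are written 5′ to 3′ with matches to the Smad binding core CAGAC, searched on both strands, and to the GC-rich element GGCGCC in capitals.
Bmp5: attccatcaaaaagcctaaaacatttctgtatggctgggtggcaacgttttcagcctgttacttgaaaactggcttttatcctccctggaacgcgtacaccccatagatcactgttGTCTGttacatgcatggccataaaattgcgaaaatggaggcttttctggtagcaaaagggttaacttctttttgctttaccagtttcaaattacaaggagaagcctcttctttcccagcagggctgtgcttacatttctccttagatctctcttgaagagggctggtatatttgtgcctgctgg
Chrd: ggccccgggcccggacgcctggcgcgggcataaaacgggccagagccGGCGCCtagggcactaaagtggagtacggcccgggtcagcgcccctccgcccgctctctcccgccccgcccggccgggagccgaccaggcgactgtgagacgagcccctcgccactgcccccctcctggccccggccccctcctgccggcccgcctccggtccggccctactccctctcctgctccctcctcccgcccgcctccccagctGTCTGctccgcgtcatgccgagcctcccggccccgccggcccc
The Bmp5 window had a GC content of 43.3% with 4 CpG dinucleotides, and the Chrd window 78.3% with 34. Over all 32851 promoters the median GC content was 52.7% and the median number of CpG dinucleotides 7. The windows of Bmp4, Bmp6 and Grem1 held 64.0%, 69.3% and 70.7% GC. CAGAC occurred on either strand in 4 of the 5 member windows and in 49.6% of all promoters, and GGCGCC in those of Grem1 and Chrd and in 11.9% of all promoters. These matches only describe the letters in the windows.

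Of the 10 members, 7 were lower and 1 was higher in Mmp13-/- pulp at an adjusted p under 0.05 in edgeR's quasi-likelihood test. All 10 passed the filter on low counts. Over the 24534 genes tested, 24.3% were called lower, 27.3% higher and 51.6% in either direction. The members' median log2 fold change was -0.82, against 0.10 for all genes tested, -0.82 for the ligands and -0.96 for the antagonists. A change over 2-fold was found for 5 members, 4 lower and 1 higher, where 9.68% of all genes were lower and 30.1% changed by that criterion. The genotypes did not overlap in 8 of the 10 members, and in 60.9% of all genes tested. Without Mmp13-/- sample 6, 7 members were again lower and 1 higher, and 4 were over 2-fold.

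**Figure D1:**
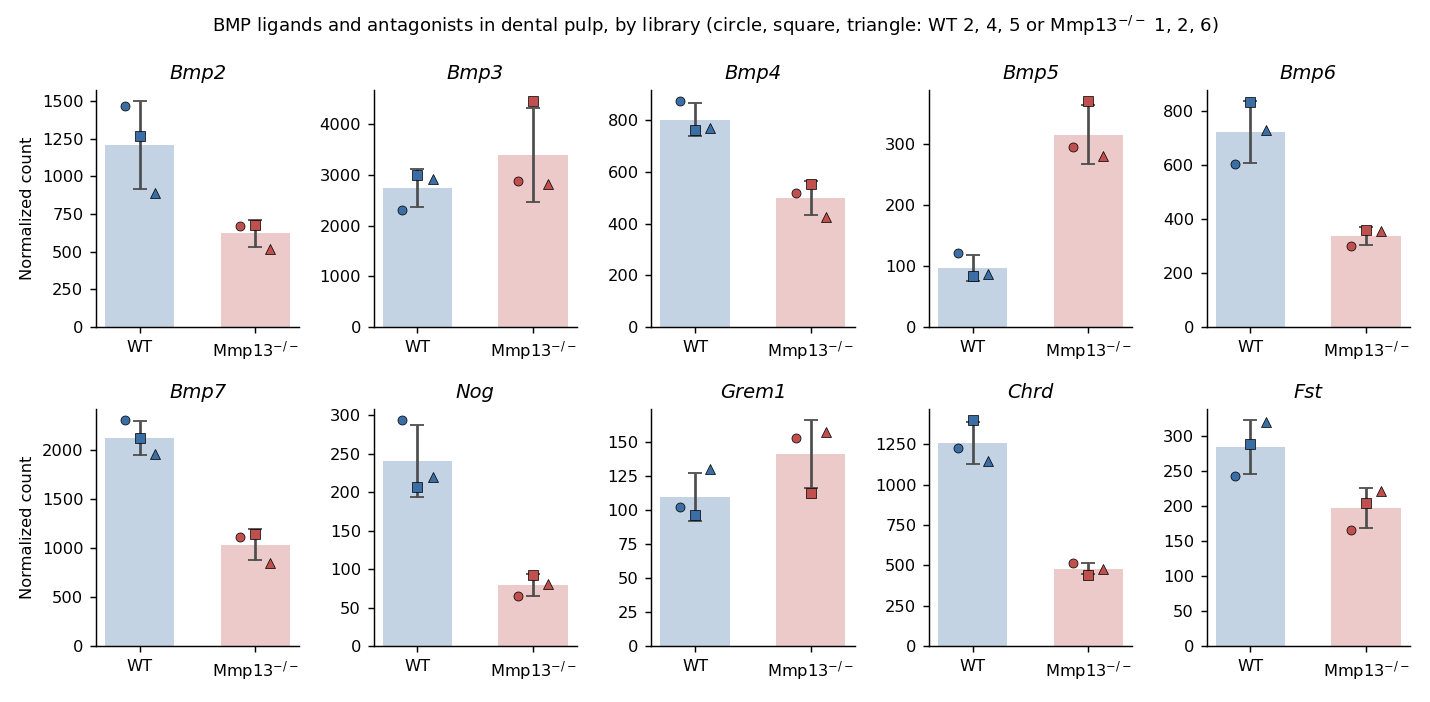
Normalized count (y axis, from 0, a scale of its own for each gene) of the 10 members in WT and Mmp13-/- pulp. Points are libraries, bars are means and error bars SD over 3 samples, and the 3 Mmp13-/- points lie above all WT points for Bmp5, overlap them for Bmp3 and Grem1, and lie below them for the other 7 genes.

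Among the ligands, Bmp2 and Bmp4 are the closely related pair best known for inducing bone and odontoblast differentiation. Bmp2 (chromosome 2) had normalized counts of 1468, 1267 and 891 in WT samples 2, 4 and 5, and of 670, 676 and 516 in Mmp13-/- samples 1, 2 and 6. WT samples were spread widely, yet the lowest of them stayed above every Mmp13-/- sample. Its log2 fold change was -0.96 ± 0.20 (SE, adjusted p = 0.00299). Bmp4 (chromosome 14) was at 875, 765 and 769 in WT and at 520, 552 and 426 in Mmp13-/- samples. The genotypes were separated here too, with a log2 fold change of -0.68 ± 0.15 (SE, adjusted p = 0.00388). An antisense neighbour with a coding model, Gm15217, shares 89 of the 2248 exonic bases of Bmp4, and it had under 24 counts in each library.

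Bmp5, Bmp6 and Bmp7 form the other classical subgroup of osteogenic ligands, and they did not move as one. Bmp6 (chromosome 13) gave normalized counts of 604, 833 and 731 in WT and of 298, 360 and 354 in Mmp13-/- samples. Bmp7 (chromosome 2) gave 2303, 2119 and 1957 in WT against 1109, 1140 and 852 in Mmp13-/- samples. For both genes the highest Mmp13-/- sample stayed below the lowest WT sample. Log2 fold changes were -1.10 ± 0.16 (SE, adjusted p = 0.000525) for Bmp6 and -1.04 ± 0.16 (SE, adjusted p = 0.000561) for Bmp7. Without Mmp13-/- sample 6, Bmp7 was at -0.91, still called but no longer past 2-fold, and Bmp6 at -1.13. Txndc5, on the opposite strand, shares 224 of the 3900 exonic bases of Bmp6. It had 3727, 4257 and 3628 counts in WT and 3563, 3889 and 1740 counts in Mmp13-/- samples, more than Bmp6 in each library. Whether strand was used in counting is not stated, so some Bmp6 counts may come from Txndc5 reads of the shared bases.

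Bmp5 was the single member called higher in Mmp13-/- pulp. Its normalized counts were 120, 82.7 and 86.4 in WT samples 2, 4 and 5, compared with 294, 370 and 279 in Mmp13-/- samples 1, 2 and 6. The lowest Mmp13-/- sample was above the highest WT sample, and the means of 96.5 ± 20.7 and 314 ± 48.4 (SD, n = 3 each) stood 3.26-fold apart. The log2 fold change was 1.70 ± 0.21 (SE, 95% interval 1.24 to 2.17, adjusted p = 0.000204), and it was 1.78 without Mmp13-/- sample 6. Bmp5 lies on chromosome 9, as Mmp13 does, at a distance of 68.5 Mb. The antisense gene Gm26903 shares 1878 of its 4025 exonic bases. That gene was at 32.7, 26.7 and 30.1 counts in WT and at 102, 140 and 61.9 counts in Mmp13-/- samples, so it was higher in the same samples. The sources used here do not state whether strand was used in counting, and reads of the shared bases cannot be assigned to either gene with certainty.

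Bmp3 differs from the other ligands in function, because it opposes osteogenic BMPs and is abundant in mineralized tissue. It was at 2315, 2996 and 2915 normalized counts in WT and at 2889, 4465 and 2825 in Mmp13-/- samples. Mmp13-/- sample 2 was the highest of all, whereas the other two lay within the WT range. The log2 fold change of 0.31 ± 0.21 (SE) did not pass the test (adjusted p = 0.237), and its 95% interval ran from -0.15 to 0.77.

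Chordin and Noggin, the 2 antagonists most specific for BMPs, were both lower. Chrd (chromosome 16) had normalized counts of 1224, 1397 and 1145 in WT and of 516, 444 and 481 in Mmp13-/- samples. The samples of each genotype were close together and far from those of the other, with means of 1255 ± 129 and 480 ± 36.1 (SD, n = 3 each). The log2 fold change was -1.39 ± 0.14 (SE, adjusted p = 0.000112), the smallest adjusted p of the 10 members. Thpo, on the opposite strand, shares 239 of the 6258 exonic bases of Chrd and had under 76 counts in each library.

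Nog, a gene with a single exon on chromosome 11, was at 293, 207 and 220 normalized counts in WT and at 64.6, 92.0 and 81.4 in Mmp13-/- samples. Not one Mmp13-/- sample reached the level of a WT sample. Its log2 fold change of -1.60 ± 0.22 (SE, adjusted p = 0.000352) corresponded to means 3.02-fold apart, the widest gap among the members that were lower. The depth behind this value was limited, with 75.3, 102 and 52.0 counts as deposited in the 3 Mmp13-/- libraries.

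Fst, which encodes Follistatin (chromosome 13), was at 243, 288 and 319 normalized counts in WT and at 166, 205 and 221 in Mmp13-/- samples. The genotypes were adjacent without overlapping, and the log2 fold change was -0.53 ± 0.18 (SE, adjusted p = 0.0324). Leaving out WT sample 4, WT sample 5 or Mmp13-/- sample 1 gave adjusted p-values of 0.0647, 0.0712 and 0.0935, so the call for Fst depended on these libraries. Grem1, the Gremlin 1 gene (chromosome 2), was at 103, 96.7 and 130 in WT and at 154, 113 and 158 in Mmp13-/- samples. Mmp13-/- sample 2 lay inside the WT range, and the log2 fold change of 0.36 ± 0.22 (SE, 95% interval -0.13 to 0.85) did not pass the test (adjusted p = 0.193).

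A uniform rate of reads along the genome would add counts to every gene. Its size was taken from the receptor genes named above, and whether reads were spread in this way was not tested. In Mmp13-/- sample 6 that rate would account for 1.97% of the counts of Bmp3, 3.55% of Bmp7, 9.78% of Chrd, 10.8% of Bmp5, 15.6% of Nog, 15.6% of Fst and 19.7% of Grem1. In Mmp13-/- samples 1 and 2 the share was at most 5.83%, for Grem1. With this rate subtracted, Fst was no longer called (adjusted p = 0.0510), and the other 7 called members were.

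Members with a higher GC content tended to have a lower log2 fold change, though the orders were not identical. GC content, averaged over all annotated transcripts of a gene by their length, was 40.6% in Bmp5, 44.7% in Grem1 and 45.9% in Bmp3. These were the 3 members that were not lower. It was 47.2% in Fst, 52.5% in Bmp2, 53.7% in Bmp4, 56.0% in Bmp7, 56.2% in Nog, 57.6% in Bmp6 and 59.7% in Chrd. Spearman's rho between GC content and log2 fold change was -0.95 over the 10 members and -0.58 over all protein-coding genes tested, where genes share their libraries and are not independent replicates.

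**Figure D2:**
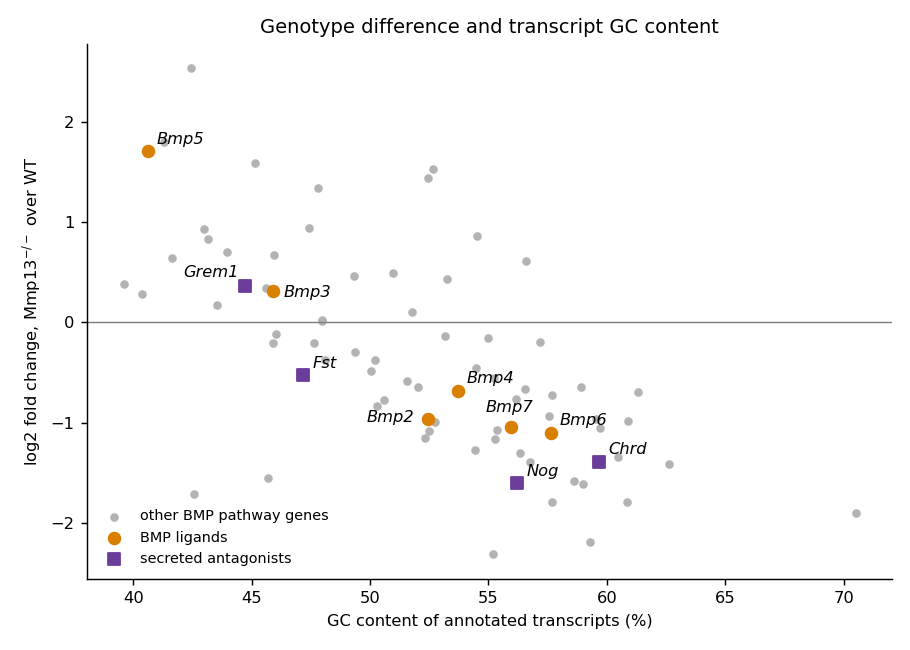
Log2 fold change between Mmp13-/- and WT pulp (y axis) against GC content of the annotated transcripts in percent (x axis) for the 6 BMP ligands, the 4 secreted antagonists and 68 of the 70 other BMP pathway genes. Gdf2 and Bmp10, both near 0 in WT, lie above the plotted range. Bmp5 at 40.6% GC is the highest member and the members above 50% GC are all below -0.6.

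The fit was therefore repeated with offsets that remove the trend with GC content in each library. Nog remained lower at -0.81 ± 0.24 (SE, adjusted p = 0.0304), and Bmp5 remained higher at 0.87 ± 0.17 (SE, adjusted p = 0.00599). No other member was called, and in this fit 12.8% of all genes were lower and 22.9% higher. Chrd went from -1.39 to -0.32 (adjusted p = 0.0513), Bmp2 from -0.96 to -0.50 (adjusted p = 0.0640), Bmp7 from -1.04 to -0.27 (adjusted p = 0.111), Bmp6 from -1.10 to -0.17 (adjusted p = 0.361) and Bmp4 from -0.68 to -0.11 (adjusted p = 0.479). Fst kept its size, -0.56 after -0.53, with an adjusted p of 0.0625. The members' median became -0.22, beside 0.20 for all genes tested. With the uniform read rate subtracted as well, Nog (-0.87, adjusted p = 0.0224), Chrd (-0.34, adjusted p = 0.0411) and Fst (-0.64, adjusted p = 0.0337) were lower and Bmp5 was higher (0.85, adjusted p = 0.00561). Whether the trend with GC content arose in the libraries or in the tissue was not tested.

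**Figure D3:**
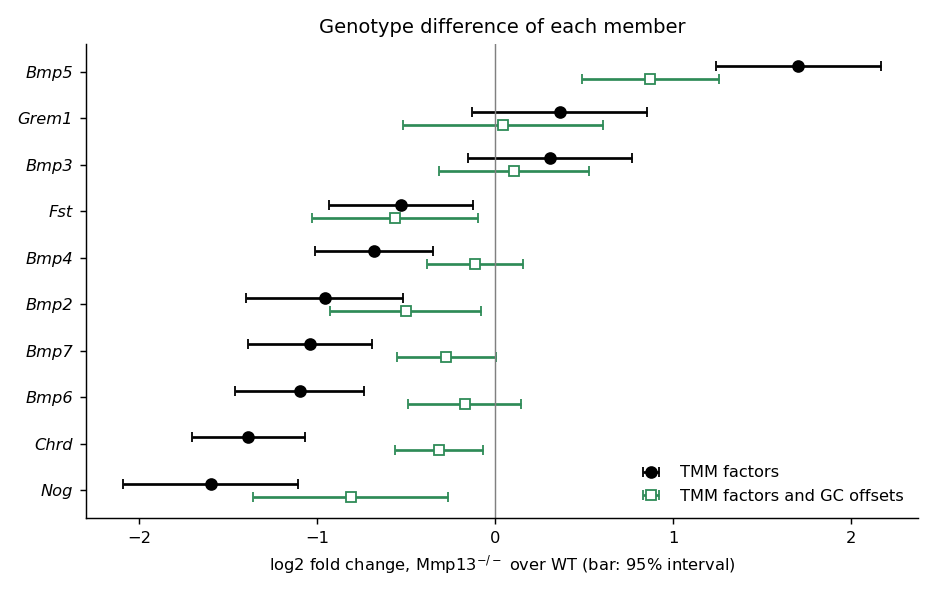
Log2 fold change between Mmp13-/- and WT pulp (x axis) of each member, with 95% intervals as bars. Filled circles use TMM factors alone and open squares add GC offsets, under which Bmp5 and Nog are still called while Bmp4, Bmp6 and Bmp7 have intervals that include 0.

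To compare levels between genes, normalized counts were divided by exon length. In WT, Bmp7 was highest at 529 ± 43.1 normalized counts per kilobase (SD, n = 3), followed by Bmp3 at 371 ± 50.3, Bmp4 at 357 ± 27.9 and Bmp2 at 340 ± 82.4. The ranges of Bmp3, Bmp4 and Bmp2 overlapped from one to the next, and Bmp7 was clear of them. Chrd at 201 ± 20.6, Bmp6 at 185 ± 29.4 and Nog at 142 ± 27.4 came next, again with overlap between neighbours. Fst at 61.8 ± 8.32 stood by itself, above Grem1 at 26.5 ± 4.32 and Bmp5 at 24.0 ± 5.14, which overlapped. Bmp7 ranked at the 93.4th percentile of all genes tested on this scale and Bmp5 at the 33.5th.

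In Mmp13-/- pulp the order was a different one. Bmp3 was highest at 459 ± 126 normalized counts per kilobase and did not overlap with Bmp7 at 257 ± 39.5. Bmp7 and Bmp4 (222 ± 29.2) overlapped, as did Bmp4 and Bmp2 (175 ± 25.5). Clear of these, Bmp6 (86.5 ± 8.72), Bmp5 (78.1 ± 12.0) and Chrd (76.7 ± 5.76) overlapped from one to the next. Below Chrd and clear of it, Nog (46.8 ± 8.15), Fst (43.0 ± 6.20) and Grem1 (34.1 ± 5.98) closed the order with overlapping ranges.

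Shares within the ligand sum do not depend on library scaling, but they do depend on GC content. Bmp7 made up 30.6%, 28.3% and 28.9% of the summed ligand level per kilobase in WT samples and 22.3%, 18.8% and 19.5% in Mmp13-/- samples. Bmp3 made up 16.7%, 21.7% and 23.4% in WT but 31.6%, 40.0% and 35.1% in Mmp13-/- samples, so on this scale Bmp7 led in each WT sample and Bmp3 in each Mmp13-/- sample. Bmp5 went from 1.10% to 1.60% in WT to 5.91% to 6.38% in Mmp13-/- samples. Genotypes did not overlap in these 3 shares, and they overlapped for Bmp2, Bmp4 and Bmp6. Among the antagonists, Chrd held 46.6% ± 4.46 of the sum in WT and 38.3% ± 3.68 in Mmp13-/- samples (SD, n = 3 each), Nog 32.8% ± 5.38 and 23.3% ± 3.97, Fst 14.4% ± 2.47 and 21.4% ± 2.36, and Grem1 6.18% ± 1.22 and 17.0% ± 2.80, with no overlap between genotypes in any of the 4. With GC offsets, Bmp5 was the only member whose share did not overlap, at 2.21%, 1.95% and 1.97% in WT against 3.83% to 4.56% in Mmp13-/- samples. Bmp3 then held 19.5%, 28.8% and 29.1% in WT but 26.0%, 33.5% and 30.5% in Mmp13-/- samples, and Bmp7 28.4%, 24.3% and 25.6% in WT but 26.2%, 22.8% and 22.2% in Mmp13-/- samples. Thus Bmp3 was already above Bmp7 in WT samples 4 and 5 in that fit, and below it in Mmp13-/- sample 1.

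The summed ligand level was 1873, 1863 and 1683 normalized counts per kilobase in WT and 1236, 1507 and 1089 in Mmp13-/- samples. The summed antagonist level was 446, 431 and 414 in WT against 194, 197 and 211 in Mmp13-/- samples. Both sums were lower in each Mmp13-/- sample than in any WT sample. Their ratio was 4.20, 4.32 and 4.07 in WT against 6.38, 7.65 and 5.16 in Mmp13-/- samples, which did not overlap. An exact permutation test of 3 against 3 samples cannot give a two-sided p under 0.1, so no test was made of the ratio. With GC offsets the ratio was 4.55, 4.83 and 4.36 in WT against 5.80, 6.75 and 4.83 in Mmp13-/- samples, and Mmp13-/- sample 6 fell just inside the WT range. Without Bmp3, which acts against the other ligands, it was 3.50, 3.38 and 3.11 in WT against 4.37, 4.59 and 3.35 in Mmp13-/- samples, again with sample 6 inside the WT range. Both of these variants, and the shares with GC offsets, were chosen after the data were seen.

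**Figure D4:**
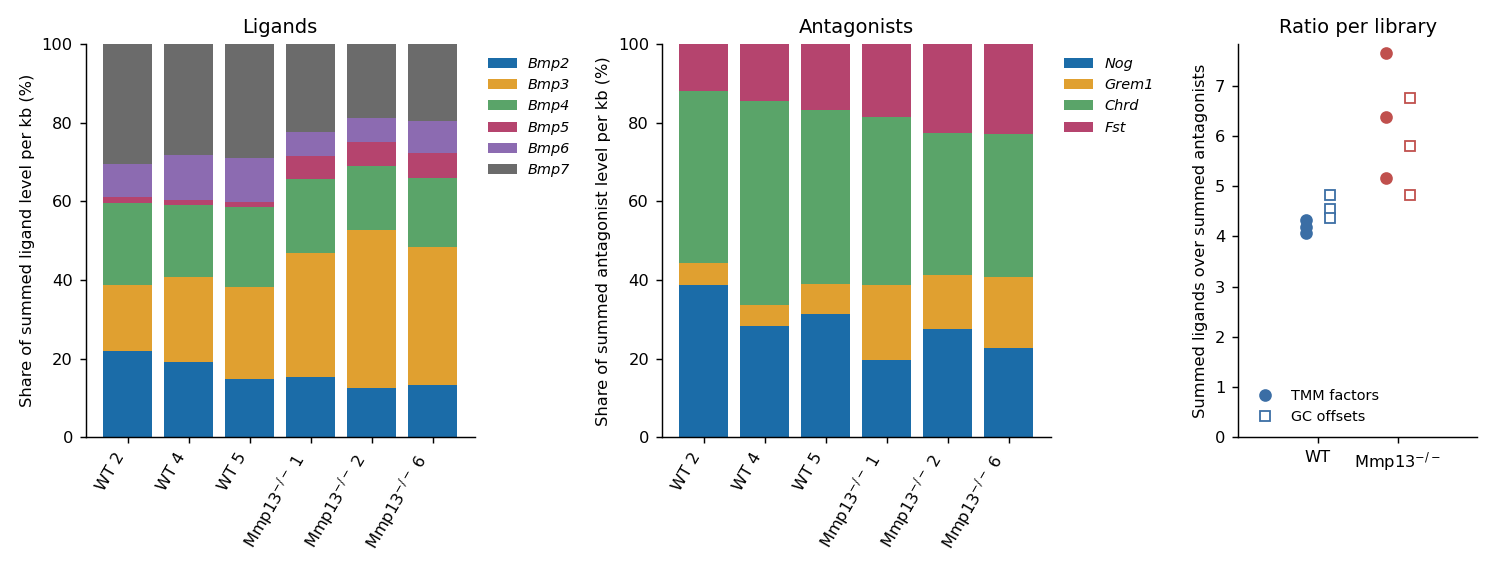
Share of each gene in the summed ligand and summed antagonist level per kilobase (stacked bars, percent, 1 bar per library), and summed ligands over summed antagonists (points, y axis from 0, a ratio without unit). Bmp3 takes 31.6% to 40.0% of the ligand level in Mmp13-/- libraries and at most 23.4% in WT, and the ratio separates the genotypes with TMM factors (filled) and not with GC offsets (open). Bars use TMM factors, and with GC offsets Bmp5 alone has shares that do not overlap.

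Around the members, 70 other genes of the pathway were tested, of which 35 were lower, 12 higher and 23 not called. All lists below are to be read against 24.3% of all genes lower and 27.3% higher. Their median log2 fold change was -0.41, and 0.00 with GC offsets, where 20 were lower and 10 higher, beside 12.8% and 22.9% of all genes. Of the 12 higher, 6 (Gdf2, Bmp10, Bmp15, Chrdl2, Vwc2l and Bmpr1b) passed the filter on low counts only through the Mmp13-/- libraries, so that a difference was built in. Without the 7 genes of this kind, of which Gdf5 was not called, 35 were lower and 6 higher of 63. Of the 47 called genes, 12 turned direction with GC offsets or with GC offsets and background subtraction together, and no called gene turned under the other scalings tried. A turn means a change of sign only, and none of the 12 was called with GC offsets. Values there ranged from near 0, as for Inha (0.02, adjusted p = 0.957), to that of Bmp8a (0.37, adjusted p = 0.176) among those that changed sign in that fit. Values given for pathway genes in the following are log2 fold changes.

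Proteases that release BMPs from their precursors or cut Chordin were lower for 5 of 7 genes and higher for none, and 2 of the 5, Pcsk6 and Pcsk7, turned direction with GC offsets. Furin, the main convertase of BMP precursors, had a log2 fold change of -1.79 ± 0.15 (SE, adjusted p = 5.2e-05), and remained lower with GC offsets at -0.86. Bmp1, a metalloprotease that cleaves Chordin and procollagens and is not a BMP ligand, was at -1.30 ± 0.17 (SE, adjusted p = 0.000271), and at -0.49 (adjusted p = 0.0146) with GC offsets. The convertases Pcsk5 (-0.84, adjusted p = 0.0018) and Pcsk7 (-0.55, adjusted p = 0.00794) were lower as well. With GC offsets Pcsk5 was at -0.56 (adjusted p = 0.0108) and Pcsk7 at 0.16 (adjusted p = 0.183).

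Receptors and co-receptors were lower for 8 and higher for 3 of 14 genes. Without Bmpr1b, which passed the filter only through the Mmp13-/- libraries, 8 were lower and 2 higher of 13. Of those lower, Acvrl1 turned with GC offsets and Eng with GC offsets and background subtraction together. Rgma, a co-receptor of the repulsive guidance family, was at -2.19 ± 0.15 (SE, adjusted p = 2.7e-05), and its relative Hfe2, the hemojuvelin gene, which skeletal muscle expresses strongly, at -2.31 ± 0.33 (SE, adjusted p = 0.000402). As given above, 8 of 10 skeletal muscle markers were lower in the same samples. The type II receptor Acvr2b was at -1.61 (adjusted p = 0.000193) and the endothelial co-receptor Eng at -0.93 (adjusted p = 0.000771), which was at -0.01 with GC offsets. Against this direction, the type I receptors Bmpr1a and Bmpr1b were higher, at 0.83 (adjusted p = 0.00779) and 1.59 (adjusted p = 0.0306), and so was Bambi, a decoy receptor without a kinase, at 0.70 (adjusted p = 0.00802). None of the 3 was called with GC offsets, at 0.31 (adjusted p = 0.0895), 1.38 (adjusted p = 0.0991) and 0.27 (adjusted p = 0.143). In that fit 6 receptors were lower and 0 higher, and Bmpr2 (-0.64, adjusted p = 0.0043) and Acvr2a (-0.60, adjusted p = 0.0026), not called with TMM factors alone, were among the 6. Rgma (-1.15), Hfe2 (-1.63) and Acvr2b (-0.60) were still called lower there. Bmpr1b had a mean normalized count of 23.1 in WT and 70.0 in Mmp13-/- pulp, and 44.9% of its counts in Mmp13-/- sample 6 would be met by the uniform read rate.

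Intracellular transducers were lower for 5 and higher for 1 of 9 genes. Tob1, a repressor of Smad signalling, was at -1.55 ± 0.19 (SE, adjusted p = 0.000188), the corepressor Ski at -1.27 ± 0.15 (SE, adjusted p = 0.000199), the ubiquitin ligase Smurf1 at -1.16 ± 0.15 (SE, adjusted p = 0.000226) and the shared mediator Smad4 at -0.78 ± 0.18 (SE, adjusted p = 0.0050). Skil, a relative of Ski, was the exception at 0.64 (adjusted p = 0.00848), and was at -0.08 with GC offsets. In that fit Tob1 (-1.78), Ski (-0.62), Smurf1 (-0.44) and Smad4 (-0.49) were still called lower. Of the BMP target genes, 8 of 11 were lower and 1 was higher, and 4 of the 8, Id3, Msx1, Dlx5 and Atoh8, turned direction with GC offsets. The inhibitory Smads Smad7 (-1.58, adjusted p = 9.8e-05) and Smad6 (-1.34, adjusted p = 0.000795), the transcription regulator Id4 (-1.71, adjusted p = 0.000138) and the homeobox gene Msx1 (-0.97, adjusted p = 0.00128) were lower, while Id2 was higher (0.67, adjusted p = 0.00871). With GC offsets Id4 was at -2.33, Smad7 at -0.59, Smad6 at -0.24, Id2 at 0.49 and Msx1 at 0.09, and the list's median went from -0.76 to 0.09. In that fit 2 targets were lower and 2 higher. Id1, not called with TMM factors alone (-0.16, adjusted p = 0.499), was among those higher (0.54, adjusted p = 0.0225).

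The remaining ligands of the family were lower for 5 and higher for 3 of 13 genes, and Bmp8a and Inha of those lower turned with GC offsets. Inhbb, an activin subunit, was at -1.79 ± 0.16 (SE, adjusted p = 6.3e-05), Gdf7 at -1.90 ± 0.24 (SE, adjusted p = 0.000254) and Gdf11 at -1.08 ± 0.20 (SE, adjusted p = 0.00189). With GC offsets Inhbb (-0.65), Gdf7 (-0.80) and Gdf11 (-0.62) were still called lower. Those called higher were Gdf2, Bmp10 and Bmp15, ligands of liver, heart and oocyte that were at or near 0 in WT and passed the filter only through the Mmp13-/- libraries. Gdf2 was at 0 in each WT sample and at 10.3, 18.5 and 41.7 normalized counts in Mmp13-/- samples. The mean of these, 23.5, was 8.24 times a floor set at 3 counts per WT library. Bmp10 was at 0, 2.01 and 0 in WT and at 13.7, 18.1 and 47.6 in Mmp13-/- samples. In Mmp13-/- sample 6 the uniform read rate would account for 53.9%, 70.8% and 66.0% of the counts of Gdf2, Bmp10 and Bmp15. Among the other secreted modulators 4 of 16 were lower and 4 higher. Chrdl2 and Vwc2l, of those higher, passed the filter only through the Mmp13-/- libraries. Without these 2 genes, 4 of 14 were lower and 2 higher. The antagonists Nbl1 (-1.41, adjusted p = 0.000228) and Dand5 (-1.07, adjusted p = 0.00166), the activin-binding Fstl3 (-1.39, adjusted p = 0.000143) and the BMP-binding membrane protein Crim1 (-1.16, adjusted p = 0.000276) were lower, and the Chordin relatives Chrdl1 (0.93, adjusted p = 0.00387) and Chrdl2 (1.53, adjusted p = 0.0439) and the related Vwc2 (1.34, adjusted p = 0.00726) and Vwc2l (1.79, adjusted p = 0.0141) were higher. With GC offsets Nbl1 (-0.21, adjusted p = 0.269), Dand5 (-0.36, adjusted p = 0.167), Chrdl1 (0.38, adjusted p = 0.252) and Vwc2l (1.14, adjusted p = 0.144) were not called. Sost (0.69, adjusted p = 0.00744), Fstl1 (0.65, adjusted p = 0.0166) and Bmper (0.84, adjusted p = 0.0323), not called with TMM factors alone, were higher. In that fit 5 modulators were higher and 2 lower. Vwc2l turned direction with GC offsets and background subtraction together. The uniform read rate in Mmp13-/- sample 6 came to 20.5% of the counts of Chrdl1, 43.3% of Chrdl2, 70.1% of Vwc2 and 106% of Vwc2l.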

How the data were processed

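RNA sequencing libraries of dental pulp from 3 WT and 3 Mmp13-/- mice were paired-end reads from a HiSeq instrument, analysed by the authors in Strand NGS. The submitters' processing notes name the mm10 build and DESeq, and the aligner and annotation release are not given in the sources used here. Estimated counts per gene (partly fractional) and normalized log2 values were deposited by the authors in 1 table, all of whose 6 sample columns were assigned by their labels, with 0 columns left over. Counts were rounded and tested in edgeR 4.0.16 (R 4.3.3) by the quasi-likelihood test with TMM factors, filterByExpr by genotype and Benjamini-Hochberg adjustment over 24534 genes, and p under 0.05 after adjustment was the call. The tests were also run on counts simulated from the mean levels of these genes, with an outcome that is not given here. Normalized counts are counts over the TMM-scaled library, brought to the mean library. SE is that of the log2 fold change, and SD is over samples. GC content, exon length and positions came from the GENCODE M21 annotation of GRCm38, with identifiers matched for 99.8% of genes. Background rates came from 1451 receptor genes, and 13 genes were counted as satellite-like. GC offsets used a loess with span 0.4. Alternatives used DESeq2 1.42.0, limma 3.58.1 on the deposited log2 values, other factors and filters, and each sample left out.

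Members and gene lists were chosen with earlier results of these data known. Besides members and Mmp13, the text names in each pathway list the 4 called genes with the smallest adjusted p and those called against the list's majority. Genes named because they turned direction or gained a call with GC offsets, or passed the filter only through 1 genotype, were chosen after their values were seen. In the list that was evenly split, all called genes are named. Hemojuvelin was listed under both of its symbols and is in the table as Hfe2. Samples share only replicate number 2 between genotypes and were not paired. Whether samples are separate animals was taken from the study, and p-values otherwise measure only the spread between these libraries. Labels name a column kit and the methods a phenol reagent for RNA extraction. Intervals cover the spread between samples, and counts limit low genes.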

Additional observations from a re-analysis of the deposited data

How the results depend on the processing

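Over 17 alternatives, the log2 fold changes of the 10 members gave 170 comparisons, of which 151 kept their side of the threshold, 18 lost the call, 1 gained it and 0 turned a called direction. Grem1, never called, changed sign with background subtraction and GC offsets together (-0.07). Bmp5 and Nog were called in all 17, with log2 fold changes from 0.85 to 1.91 and from -1.79 to -0.81. Fst lost its call in 8 and Bmp4 with total counts (-0.55, adjusted p = 0.157) and in both fits with GC offsets. Bmp3 was called with upper-quartile factors (0.51, adjusted p = 0.0401) and came to 0.00 without Mmp13-/- sample 2. Over all genes tested the median log2 difference, 0.10, moved to 0.32 under upper-quartile scaling, where the members' median was -0.62, and to 0.22 for total counts, where it was -0.69. Calls over all genes were 53.0% higher in the main test, 63.9% under upper-quartile scaling, 69.2% for total counts and 64.1% with GC offsets.

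The 7 members called lower became 1 with GC offsets and 3 with background subtraction and GC offsets, and the 1 called higher became 2 with upper-quartile factors. The 5 members over 2-fold became 3 with upper-quartile factors, 3 with total counts, 3 with at least 10 counts in every sample, 3 with background subtraction, 0 with GC offsets and 0 with both corrections. Pathway genes called lower, 35, became 23 with total counts, 20 with GC offsets and 20 with both corrections, and those called higher, 12, became 5 with both corrections. Leaving out each sample gave 6 to 7 members lower, 1 to 1 higher and 4 to 6 over 2-fold, and 33 to 36 pathway genes lower and 7 to 14 higher, with 7 without WT sample 4 and 7 without WT sample 5. The ratio of summed ligands to antagonists was 1.53 times higher in Mmp13-/- samples, 1.26 times with GC offsets and 1.23 times without Bmp3. With GC offsets the difference in mean share, Mmp13-/- minus WT, turned for Bmp4 (-2.31 to 0.29 percentage points), Chrd (-8.28 to 4.41) and Fst (6.95 to -1.42). Causes were not tested. The genotypes share only 1 replicate number. No paired analysis was possible because fewer than 2 numbers are shared. Counts of 52.0 to 102 for Nog and 101 to 179 for Grem1 in Mmp13-/- libraries limit what these can show.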
